A study of Drosophila melanogaster with 6 samples.

Results

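A total of 37 genes of the 16508 in the tables were detected in every library of one labelled genotype and were at or near 0 in every library of the other. A gene was chosen by its rounded expected count, the number of reads or read pairs that the authors' software assigned to it, which had to be at least 10 in each of the 3 libraries of one label and at most 3 in each of the 3 libraries of the other. CG10081, Victoria, Lcp3, Cyp4p2 and CG9463 were left out by name, and 1 of these 5, CG10081, would have passed. Of the 37 genes, 12 were detected in the libraries labelled crol-KO and 25 in those labelled wild-type. Because the members were selected on these counts, their counts and fold changes are given as a description, without a test.

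The study asked whether Crol, a zinc finger protein that binds DNA, takes part in the recruitment of Polycomb group repressors in Drosophila. Its RNA-seq asked what crol knockout changes in the transcription of larvae. The paper reports that Crol protein was reduced but not gone in the knockout, and proposes that the rest was supplied by the mother. Polyadenylated RNA was sequenced from whole larvae of instar 3, 40 larvae per sample, in 3 biological repeats of each label. Wild-type larvae were of the Oregon strain. The crol-KO line was made with CRISPR/Cas9 and homologous recombination, with a DsRed marker put in place of crol sequence, in a line carrying y1, an Act5C promoter driving Cas9, w1118 and DNAlig4-169, and was then crossed to y- w1118 flies and kept over a CyO balancer that carries P(w+mC=Tb1) Cpr[CyO-A]. Flies of both labels were kept at 25°C. The labels differ in strain as well as in crol genotype, so strain and crol genotype cannot be told apart. Age within the instar is not given, so a difference in age between the labels cannot be told apart from these either.

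Table names and sample labels give opposite genotypes for each library. Groups follow the labels here, and so does every direction below. In the libraries labelled crol-KO, crol itself had a log2 fold change of -0.73 (SE 0.122, edgeR adjusted p = 0.0043). This difference was only -0.14, with an adjusted p no longer under 0.05, after the trend of each library with transcript length was removed. Counts of crol were 1664, 1498 and 747 there and 2167, 3014 and 2610 under the label wild-type, though crol sequence was replaced in the knockout line. The eye colour gene w is mutated in w1118, the background of that line, and no such mutation is given for the Oregon strain. The balancer carries a copy of w, and whether the sequenced larvae carried the balancer is not stated. The gene w was 4.63 higher on the log2 scale in the libraries labelled crol-KO (SE 0.181, edgeR adjusted p = 1.56e-05). It was thus higher under the label of the line with the w1118 background. Its counts were 592, 636 and 361 there and 28, 31 and 20 under the label wild-type. Whether labels or table names are right was not settled. Totals ran from 23637987 to 49236818 counts per library, and whether a count is a read or a read pair was not settled. A count of 10 therefore stood for 0.201 to 0.495 CPM (counts scaled to 1000000 per library after TMM normalization) and a count of 3 for 0.0603 to 0.149 CPM. Over all 12434 genes tested with edgeR's quasi-likelihood test, 13.5% were called at an adjusted p under 0.05 and a log2 fold change above 1 in size. The libraries labelled crol-KO were higher for 5.99% and lower for 7.55% of them.

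Genes read in one condition only are of interest because they come close to an on or off state. In whole larvae, such a state can belong to a small organ or a few cells, and transcripts of this kind are often short, weakly transcribed or noncoding. Odorant-binding proteins carry small hydrophobic molecules in the fluid around sensory neurons and in other tissues, alkaline phosphatases split phosphate from substrates at the cell surface, chorion proteins build the eggshell, and pickpocket and ionotropic receptors are ion channels used in taste and touch. In RNA from whole larvae, fewer cells of a type and less RNA per cell cannot be told apart.

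Members were rare among detected genes. Of 11623 genes with at least 10 counts in each library labelled crol-KO, 0.103% were at 3 or fewer in every library labelled wild-type. In the other direction the share was 0.208% of 11998 genes. A set of 11430 genes reached 10 counts in all 6 libraries, and 2370 genes stayed at 3 or fewer in all 6. Both sides were therefore small exceptions in transcriptomes that were otherwise detected together. On each side, 5 members had no count at all in the 3 libraries of the other label.

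**Figure D1:**
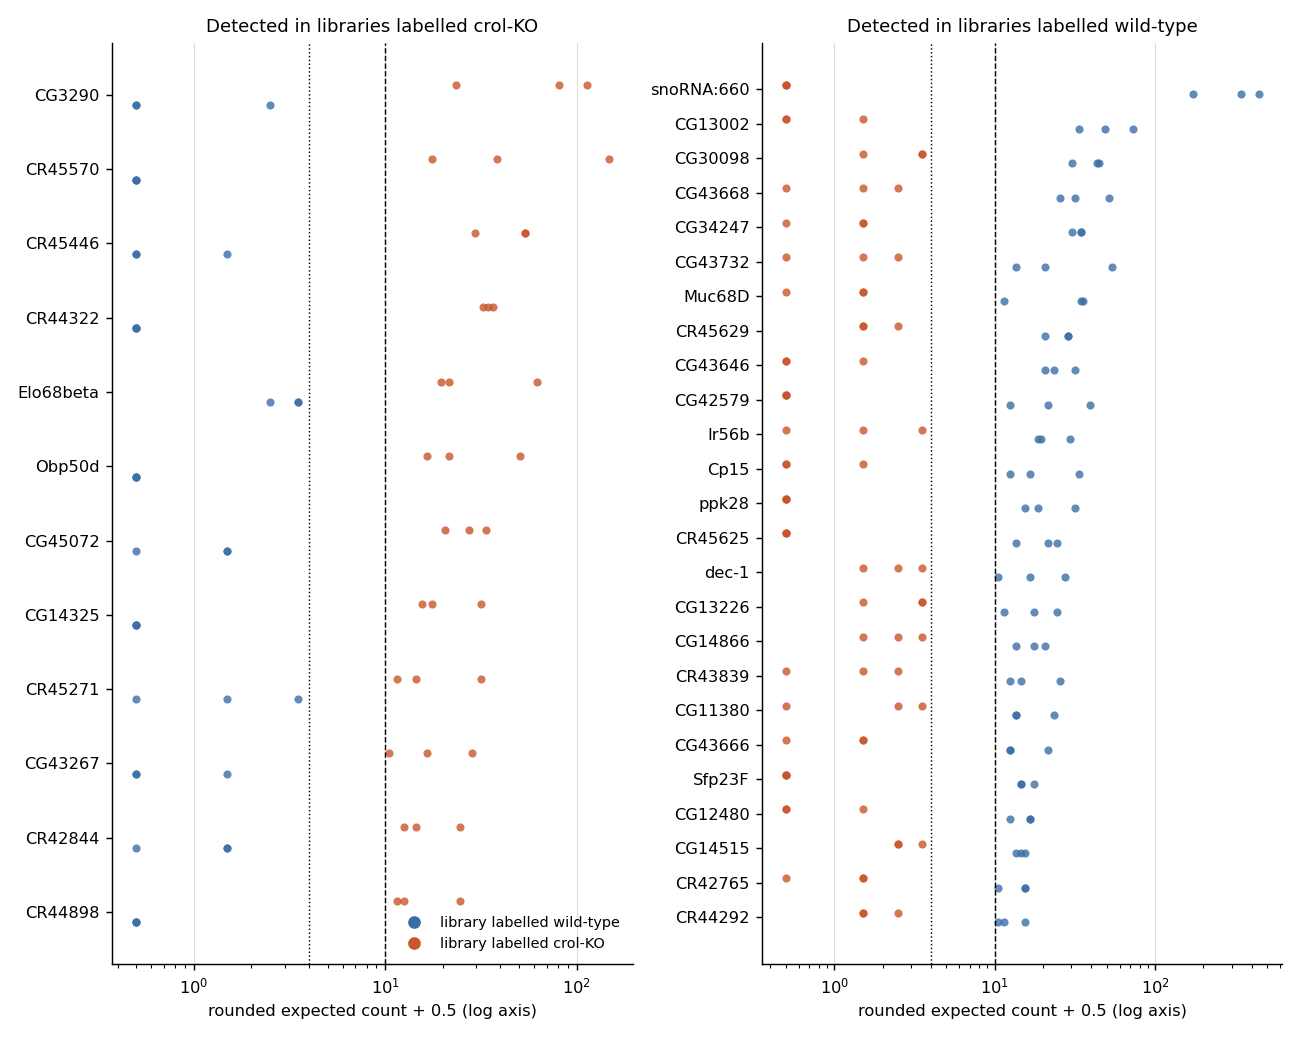
Rounded expected counts of the 37 members in each library, with 0.5 added and on a log axis. Blue points are the 3 libraries labelled wild-type and orange points the 3 labelled crol-KO, the dashed line marks the lower limit of the detected label and the dotted line the upper limit of the other label. The points of the 2 labels do not overlap for any member, which the choice of members fixes, and snoRNA:660 stands highest at 171 to 442 counts.

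The genes detected in the libraries labelled crol-KO comprised 6 protein-coding genes and 6 noncoding RNAs, of which the annotation names 5 as long noncoding RNAs and 1 as an antisense RNA. Among the coding genes, 3 have a family name: Alp2 (CG3290 in the tables), an alkaline phosphatase, Elo68beta, an elongase of fatty acids, and Obp50d, an odorant-binding protein. The others, CG45072, CG14325 and CG43267, carry a number only.

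Alp2, on chromosome arm 2R, had 80, 113 and 23 counts in the libraries labelled crol-KO (replicates 1, 2 and 3) and 2, 0 and 0 in those labelled wild-type. Depth-scaled, this was 2.05 ± 0.905 CPM (SD, n = 3) against a mean of 0.0195 CPM, a ratio of pooled counts of 133 with a 95% counting interval of 36.3 to 1103. The choice of members fixes that the 2 labels lie apart. Replicate 3 had by far the fewest counts of the libraries labelled crol-KO and is also the shallowest library. The interval covers counting error only, as do all intervals below.

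The genes on both sides of Alp2 are alkaline phosphatases too, and the choice of members did not use them. Alp7 (CG3292) had 3662, 5184 and 1151 counts in the libraries labelled crol-KO and 111, 152 and 99 in those labelled wild-type. Its log2 fold change was 4.98 (SE 0.33, edgeR adjusted p = 0.000114). Alp8 (CG3264) rose from 444, 619 and 559 counts to 15005, 16803 and 6427, a log2 fold change of 4.80 (SE 0.189, edgeR adjusted p = 1.56e-05). The groups of both genes were far apart, and both calls held under all 15 other settings of the fit. A run of 3 neighbouring phosphatase genes was thus higher together in the libraries labelled crol-KO, of which Alp2 had the lowest level by far.

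Genes of like sequence can share reads, and how alike Alp2, Alp7 and Alp8 are was not examined. Alp2 was therefore set beside its neighbours by counts. In the libraries labelled crol-KO, Alp2 counts were 0.562% of those of Alp2 and Alp8 together (exact 95% interval 0.49 to 0.642). In the libraries labelled wild-type they were 0.123% (0.0149 to 0.444), from 2 counts. Against Alp7 the shares were 2.11% (1.84 to 2.41) and 0.549% (0.0666 to 1.97), whose intervals touch. Whether reads of Alp7 or Alp8 were assigned to Alp2 was not tested.

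Of the 12 alkaline phosphatase genes in the tables, all were detected in at least one label. Besides Alp2, 11 were tested, and the libraries labelled crol-KO were higher for 5 by the call and lower for none, among them Alp10 (log2 fold change 2.17), Alp9 (1.54) and Alp6 (1.41). The calls of Alp9 and Alp6 were lost with both limma fits, which left 3 higher. The count was 6 with DESeq2, edgeR with DESeq2 size factors, upper-quartile normalization, and without crol-KO replicate 2, wild-type replicate 1 or wild-type replicate 3. This family was looked up after the members were known, and its count is only set beside the 5.99% of all genes called higher. The other 6 were not called. Alp12 at 0.99 and Alp5 at 0.63 missed the call only on the fold threshold (edgeR adjusted p of 0.00227 and 0.0141). Alp4 was at 0.27, Alp13 at 0.15, Alp11 at 0.07 and Alp1 at -0.17. Midgut digestive enzymes moved as well: of 5 midgut markers 4 were called higher and 1 lower, with summed levels of 9868 to 10653 TPM (transcript abundance scaled for length and depth) in the libraries labelled wild-type and 23107 to 27235 in those labelled crol-KO. The part of these enzymes in the levels of Alp2 was not tested. Summed TPM, here and below, carries no TMM normalization. The TMM factors were 1.06 to 1.31 in the libraries labelled wild-type and 0.778 to 0.906 in those labelled crol-KO.

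**Figure D2:**
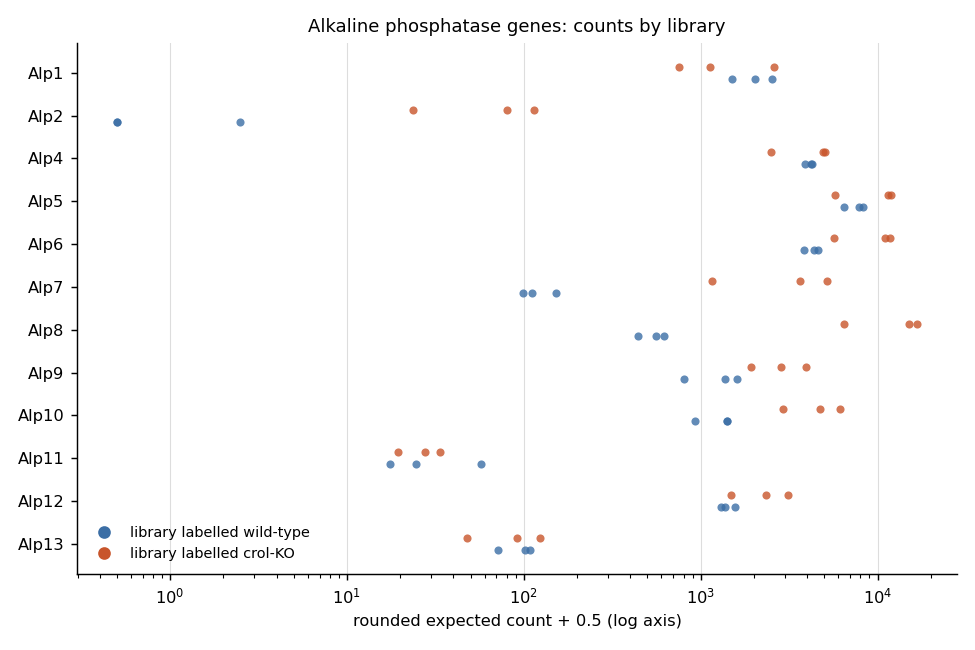
Rounded expected counts of the 12 alkaline phosphatase genes in each library, with 0.5 added and on a log axis (blue, libraries labelled wild-type; orange, libraries labelled crol-KO). Alp2, Alp7 and Alp8, which are neighbours on arm 2R, show the widest separation, with Alp2 at 0 to 2 counts and Alp8 at 444 to 619 counts in the libraries labelled wild-type.

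Elo68beta, on arm 3L, had 21, 62 and 19 counts in the libraries labelled crol-KO and 2, 3 and 3 in those labelled wild-type. It therefore lay at the upper limit of 3 on the low side, and its ratio of pooled counts was 15.7 (7.66 to 37.3). Its neighbour Elo68alpha, the other gene of this pair of elongases, had 27, 59 and 25 counts against 17, 19 and 15. The 2 groups of Elo68alpha did not overlap, and it was called higher, by 1.41 on the log2 scale (SE 0.368, edgeR adjusted p = 0.0229). That call was lost under 6 of 15 other settings, with adjusted p up to 0.112. These were both limma fits, the replicate block, and leaving out crol-KO replicate 2, crol-KO replicate 3 or wild-type replicate 1. Elo68beta made up 47.9% of the counts of both genes in the libraries labelled crol-KO (exact 95% interval 41 to 54.8) and 13.6% (6.04 to 25) in those labelled wild-type. The beta gene was chosen by these counts, so this difference in share is a description.

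Obp50d, on arm 2R, was at 21, 50 and 16 counts in the libraries labelled crol-KO and at 0 in all 3 of the others. Against a floor of 3 counts over the group, it was at least 35.6-fold higher. Its neighbour Obp50b had 8, 7 and 6 counts in the libraries labelled crol-KO and 6, 15 and 2 in the others, which overlap, and was below the minimum for testing. The next gene of the same family thus did not share the pattern, though Obp50c had the same counts as Obp50b in every library. On the other side of Obp50d, CG34185 had 12, 8 and 8 counts in the libraries labelled crol-KO against 2, 6 and 1. It was also below the minimum for testing.

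Of the 51 odorant-binding protein genes in the tables, 12 stayed at 3 or fewer counts in all 6 libraries, and Obp50d was the only one that met the rule. Of 22 other genes of the family tested, the call was higher in the libraries labelled crol-KO for 7 and lower for none, beside 5.99% and 7.55% over all genes tested. The counts changed to 4 higher and 2 lower with the length trend removed, to 2 and 2 with limma on log2(TPM + 0.1), to 0 and 2 with limma on log2(TPM + 1), to 5 and 2 without wild-type replicate 2, and to 5 and 1 without crol-KO replicate 2. Obp58b had the largest difference among these, 1.91 on the log2 scale (SE 0.384, edgeR adjusted p = 0.00877), with 13, 16 and 5 counts under the label wild-type and 38, 39 and 25 under crol-KO. Obp56h was next, at 1.73 (SE 0.188, edgeR adjusted p = 0.000747). The median of the 22 was 0.37, beside -0.05 over all genes tested. The family was looked up after the members were known.

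CR45570, a long noncoding RNA on arm 3R, had the widest spread between replicates, at 38, 147 and 17 counts in the libraries labelled crol-KO and none in the others. It was at least 82.7-fold higher against the floor, but its coefficient of variation was 89.7%. CR44322, also a noncoding RNA of arm 3R, had 36, 34 and 32 counts against none and was at least 41.8-fold higher. Its replicates were less even once scaled for depth, with a coefficient of variation of 34.6%. CR44322 was the only member of the 12 that met the rule under each of 5 stricter or rescaled versions of it.

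CR45446, a long noncoding RNA on arm 3L, lies on the strand opposite PolD1, the catalytic subunit of DNA polymerase delta. It had 53, 53 and 29 counts in the libraries labelled crol-KO and 0, 1 and 0 in the others, and its depth-scaled level of 1.39 ± 0.0382 CPM (SD, n = 3) varied by 2.74%, less than the counting error alone would give. PolD1 itself had 366, 309 and 179 counts against 168, 283 and 227, which overlap in counts. Scaled for depth, it stood at 8.78 ± 0.676 CPM against 5.65 ± 0.732 CPM (SD, n = 3). Its log2 fold change of 0.63 (edgeR adjusted p = 0.0156) was not called, because it lay below the fold threshold. CR45446 counts were 13.7% of the counts of both genes (exact 95% interval 11.6 to 15.9) in the libraries labelled crol-KO and 0.147% (0.00373 to 0.818) in those labelled wild-type. At 5.42 TPM it also had the highest mean level of the 12, per length.

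The remaining genes detected in the libraries labelled crol-KO were weaker. CG45072 of arm 3R had 27, 33 and 20 counts against 1, 0 and 1. CG14325, next to the antibacterial peptide gene AttD on arm 3R, had 31, 17 and 15 against none and was at least 25.8-fold higher. AttD moved the other way, at -0.99 on the log2 scale (edgeR adjusted p = 0.00989), and missed the call only on the fold threshold. CR44898 of arm 2L, which lies within the gene of the axon guidance receptor robo2, had 24, 11 and 12 against none. The counts of CG14325 and CR44898 were highest in replicate 1, and those of CG45072 in replicate 2.

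CR45271, an antisense RNA to CG42700 on arm 2R, had 31, 14 and 11 counts in the libraries labelled crol-KO and 1, 3 and 0 in the others. CG43267, opposite the transcription elongation gene Eaf on arm 2R, had 28, 16 and 10 against 0, 0 and 1. CR42844 of arm 2L had 24, 14 and 12 against 1, 0 and 1. For these 3, as for CG14325 and CR44898, replicate 1 was the highest after scaling, while Alp2, CR45570, Elo68beta and Obp50d were highest in replicate 2. The members of this side thus did not rise and fall together over the replicates.

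The 25 genes detected in the libraries labelled wild-type were of more kinds. They comprised 19 protein-coding genes, 4 long noncoding RNAs, 1 antisense RNA and 1 small nucleolar RNA. A family name was carried by 6 coding genes: Muc68D, Ir56b, ppk28, Cp15, dec-1 and Sfp23F. A number was all that the annotation gave for 13 others.

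The gene snoRNA:660, a small nucleolar RNA of arm 2R, had the highest counts of all 37 members, with 171, 442 and 342 in the libraries labelled wild-type and none in the 3 labelled crol-KO. It was at least 259-fold higher against the floor. Small nucleolar RNAs guide the modification of ribosomal and other RNA and carry no poly(A) tail as mature molecules. This one lies inside Act57B, a muscle actin gene, on the same strand. Act57B had 151134, 195005 and 195753 counts under the label wild-type and 344303, 334962 and 122043 under crol-KO. Its log2 fold change of 0.77 (edgeR adjusted p = 0.0408) missed the call only on the fold threshold. The counts of snoRNA:660 were 0.176% of the counts of both genes (exact 95% interval 0.165 to 0.187) in the first and none of 801308 in the second, with an upper bound of 0.00046%. The level of the actin host thus did not go with that of the small RNA in these libraries. Its mean of 506 TPM rests on an effective length of 16.2 to 18.4 bases for a transcript of 96, which multiplies small counts, so the count is the better guide. The next highest mean level on this side was 3.36 TPM.

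Of the members with a family name, 3 carry names from the eggshell or the seminal fluid. Cp15, a chorion protein gene of arm 3L, had 33, 16 and 12 counts in libraries labelled wild-type and 1, 0 and 0 in the others. Its neighbour Cp18 had 16, 7 and 5 against 3, 2 and 0, below the limit of the rule, and the next chorion gene, Cp19, was at 0 in all 6 libraries. Of 9 chorion genes in the tables, 6 were at 3 or fewer counts throughout and Cp15 was the only one detected. The eggshell matrix gene dec-1 of the X chromosome had 16, 27 and 10 counts against 3, 2 and 1, the narrowest gap among members with a family name, with a ratio of pooled counts of 7.19 (3.09 to 20.5).

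Sfp23F of arm 2L, a gene named for a protein of the seminal fluid, had 14, 17 and 14 counts in libraries labelled wild-type and none in the others, at least 12.2-fold higher. Of 28 genes with this family name, 26 were at 3 or fewer counts in all 6 libraries. No other gene of the family could be tested, and Sfp23F was alone in reaching detection in a whole label. Its noncoding neighbour CR45301 had 3, 5 and 6 counts against none.

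Yolk protein genes, which the adult female fat body and ovary transcribe, were measured beside these members. Yp1, Yp2 and Yp3 were lower in the libraries labelled crol-KO, with log2 fold changes of -3.96, -4.89 and -2.67 (edgeR adjusted p of 0.00516, 2.73e-05 and 0.000684). Over the 6 ovary and adult female markers, of which Cp15 is one, the summed level was 18.9 to 33.2 TPM in the libraries labelled wild-type and 1.65 to 2.01 TPM in those labelled crol-KO. Without Cp15, whose direction its choice fixes, the sum of the other 5 was 18.2 to 30.8 TPM and 1.6 to 2.01 TPM, and the 3 tested among them are the yolk protein genes. The eggshell gene Cp36 stayed at 6, 11 and 8 against 1, 5 and 0, and Vm26Ab was near 0 in all libraries. The part of adult female tissue in the levels of Cp15 and dec-1 was not tested.

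Another 2 members are genes of sensory channels. The gene ppk28, a pickpocket channel of the X chromosome known for the taste of water in the adult fly, had 18, 31 and 15 counts in libraries labelled wild-type and none in those labelled crol-KO, at least 17.4-fold higher. Ir56b, an ionotropic receptor gene of arm 2R, had 19, 29 and 18 counts against 1, 3 and 0. Depth-scaled, Ir56b was even between replicates, at 0.547 ± 0.0394 CPM (SD, n = 3).

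Their families behaved differently from one another. Of 29 pickpocket genes, 15 were at 3 or fewer counts in all 6 libraries, and of 6 others tested ppk6 and ppk13 were lower in the libraries labelled crol-KO, with log2 fold changes of -2.36 and -2.30 (SE 0.404 and 0.381, edgeR adjusted p of 0.00467 and 0.0041). The gene ppk6 had 80, 130 and 66 counts in libraries labelled wild-type and 18, 24 and 3 in the others. Of 60 ionotropic receptor genes, 43 were at 3 or fewer throughout, and of 5 others tested only Ir85a was called, and in the other direction. That call of 1.51 (SE 0.481, edgeR adjusted p = 0.0454) was lost under 8 of 15 other settings, with adjusted p up to 0.519. These were DESeq2, both limma fits, no low-count filter, the replicate block, and leaving out wild-type replicate 1, wild-type replicate 3 or crol-KO replicate 3. Summed neuron markers were lower, at 22 to 36.1 TPM in the libraries labelled wild-type and 9.47 to 13.9 TPM in those labelled crol-KO. After TMM normalization, log2 fold changes of the 4 genes were -0.473 to -1.43, and 1 of 4 was called lower. Their part in the levels of ppk28 and Ir56b was not tested.

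Muc68D of arm 3L, a mucin-related gene, had 35, 34 and 11 counts under the label wild-type and 1, 1 and 0 under crol-KO. After scaling, its highest library labelled wild-type was 3.31 times its lowest, replicate 3. Mucins are heavily glycosylated secreted or surface proteins. Of 8 other mucin genes tested, Muc68E, Muc26B and Muc96D were called lower in the libraries labelled crol-KO, with log2 fold changes of -3.10, -3.08 and -2.69. Muc55B was called higher, at 1.06. The call of Muc55B was lost without wild-type replicate 2, with the length trend removed and with both limma fits (adjusted p up to 0.119 over the settings). Muc68E had 494, 1534 and 631 counts against 94, 95 and 50, so this gene was well detected in both labels, unlike Muc68D.

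Genes known only by number made up the rest of the highest counts on this side. CG13002 of the X chromosome had 33, 48 and 72 counts in libraries labelled wild-type and 1, 0 and 0 in the others, a ratio of pooled counts of 125 (22.0 to 4951). CG43668 of arm 2R had 51, 31 and 25 against 2, 0 and 1. CG34247 of arm 3L had 34, 30 and 34 against 1, 0 and 1. That the groups of these genes lie apart is fixed by the choice of members. The spread of the ratio came from the few counts on the low side.

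CG30098 of arm 2R, at 44, 43 and 30 counts against 1, 3 and 3, touched the upper limit on its low side. CG43646 of the same arm, at 20, 31 and 23 against 1, 0 and 0, was the most even gene of this side after scaling, with a coefficient of variation of 5.03%. CG42579 of the X chromosome had 12, 39 and 21 counts against none and was at least 19.5-fold higher. CG43646 and CG43668 also had a neighbour just outside the rule: CG43647, next to CG43646, had 10, 19 and 9 counts against 3, 2 and 1. CG15225, next to CG43668, had 9, 12 and 14 against 1, 1 and 0. In both places this next gene, named for lying just outside the rule and not tested, was thus low in the same libraries. On the other side of CG43646, Tsp42Ee was at 0.23 on the log2 scale (edgeR adjusted p = 0.25) and was not called. CG43677, on the other side of CG43668, had no count in any library.

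CG43732 of arm 3R had 20, 53 and 13 counts under the label wild-type and 0, 1 and 2 under crol-KO. It overlaps CG42613 on the same strand, and CG42613 fell by 1.95 on the log2 scale (SE 0.25, edgeR adjusted p = 0.00145), from 278, 475 and 237 counts to 110, 68 and 33. CG43732 made up 7.99% of the counts of both (exact 95% interval 6.44 to 9.78) in the first and 1.4% (0.29 to 4.04) in the second. Both genes of the pair thus had fewer counts in the libraries labelled crol-KO.

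CR45629, an antisense RNA of the X chromosome, had 28, 20 and 28 counts in libraries labelled wild-type and 1, 1 and 2 in the others. Its partner on the opposite strand, CG15308, fell by 3.87 on the log2 scale (SE 0.358, edgeR adjusted p = 0.00039), from 5613, 9156 and 7943 counts to 314, 789 and 206. CR45629 counts were 0.334% of the counts of both genes (exact 95% interval 0.263 to 0.417) in the libraries labelled wild-type and 0.305% (0.0831 to 0.778) in those labelled crol-KO. The share was thus about the same while both genes differed more than 10-fold, and the sources used here do not say whether the counting used strand. Without strand, reads of CG15308 and CR45629 cannot be told apart.

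**Figure D3:**
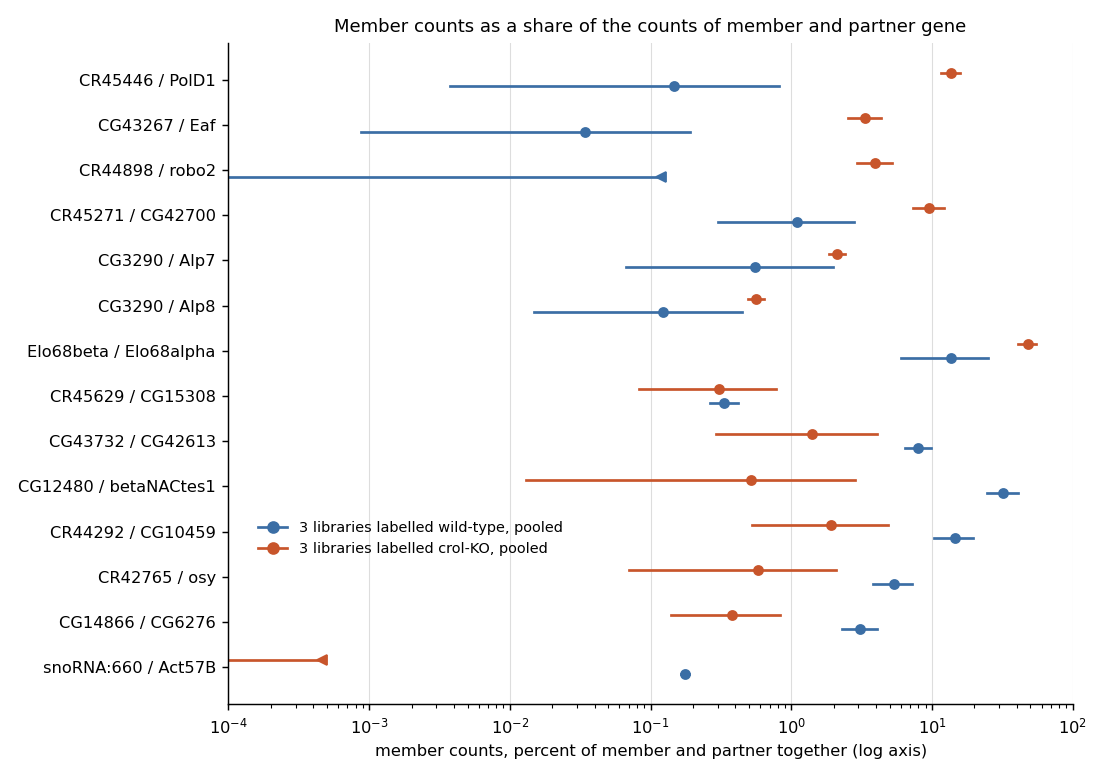
Counts of 13 members as a percentage of the counts of the member and a partner gene together, on a log axis. Points are the 3 libraries of a label pooled (blue, labelled wild-type; orange, labelled crol-KO), lines are exact 95% binomial intervals, and a triangle marks the upper bound where the member had no count. The share of CR45629 was 0.334% and 0.305%, while that of CR45446 beside PolD1 was 0.147% and 13.7%.

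The other members that overlap a gene had partners that differed less. CG12480 of the X chromosome lies opposite betaNACtes1, which is named for testis expression and was higher by 1.42 on the log2 scale (SE 0.304, edgeR adjusted p = 0.0112), at 76, 70 and 48 counts against 29, 47 and 17. The call of betaNACtes1 was lost with both limma fits. CG12480 itself had 12, 16 and 16 counts in libraries labelled wild-type and 0, 1 and 0 in the others, so the pair moved in opposite directions. Of 10 testis markers, 4 were called higher in the libraries labelled crol-KO and none lower. Those called were aly, can, comr and sa, at 1.08 to 1.78 on the log2 scale. Not called were mia at 0.219 and bam at 0.772, and Mst84Da, Mst84Dc, Mst98Ca and dj, which went the other way at -0.445 to -0.909. The summed level of the 10 overlapped, at 39.9 to 132 TPM in the libraries labelled wild-type and 26 to 46.3 TPM in the others. The part of the testis markers in the level of betaNACtes1 was not tested. CR44898 lies on the strand of robo2, which was lower in the libraries labelled crol-KO (log2 fold change -1.07, edgeR adjusted p = 0.0174). That call was lost without crol-KO replicate 2, crol-KO replicate 3 or wild-type replicate 2, with the length trend removed and with upper-quartile normalization, with adjusted p up to 0.0628 over the settings.

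CR44292 and CR42765 lie opposite CG10459 and osy, and CG14866 opposite CG6276. None of these 3 partners was called, at 0.31, -0.68 and 0.26 on the log2 scale. The partner osy missed the call only on the fold threshold (edgeR adjusted p = 0.0466). In CR44292, counts were 14.5% of those of the pair (exact 95% interval 10.4 to 19.5) in the libraries labelled wild-type and 1.91% (0.524 to 4.83) in those labelled crol-KO. In all, 13 members overlap another gene, 11 of them on the opposite strand and 3 on the same strand, since CR44898 does both. This was 33.3% and 36% of the members of the 2 sides, beside 49.7% and 49.8% of the genes detected in the same labels.

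The 10 members of the wild-type side with the fewest counts that have no family name had 10 to 25 counts in each library of their label. Among them, CR45625 of the X chromosome alone had no count in the other label, at 21, 24 and 13 counts and at least 15.7-fold higher. CG13226 of arm 2R, CG14866 of arm 3R, CG11380 of the X chromosome and CG14515 of arm 3R each reached 3 counts in a library labelled crol-KO. The weakest contrast was that of CG14515, at 14, 15 and 13 counts against 2, 3 and 2, a ratio of 4.88 (2.17 to 12.9). CR43839 of arm 2L, CG43666 of arm 2R, CR42765 of arm 3R, CR44292 of arm 2R and CG12480, described above, completed the list, with at most 2 counts in any library labelled crol-KO.

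Members shared features that the rule did not name. Of those detected in the libraries labelled crol-KO, 50% were not protein coding, beside 2.54% of all 11623 genes detected there. Of those detected in the libraries labelled wild-type, 24% were not protein coding, beside 3.06%. Only 25% and 24% of the members had a name other than a number, beside 58.2% and 57.4%. The median transcript was 742 and 784 bases long, beside 1704 and 1701 bases over detected genes, and the median level in the detected label was 0.887 and 0.703 TPM, beside 4.19 and 6.56 TPM. The rule bounds counts from below in one label and from above in the other, so low levels are in part its own doing, and no test was made on these shares.

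By chromosome, the sides differed in value. None of the 12 members of the crol-KO side lies on the X chromosome, where 15.8% of the genes detected in that label lie. On the wild-type side 8 of 25 do, or 32% beside 16%. The 8 are CG13002, CR45629, CG42579, ppk28, CR45625, dec-1, CG11380 and CG12480. No member stands next to another member. With strains that differ in their history, sequence differences on a chromosome and differences in expression cannot be told apart in these tables.

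Spread between replicates was wider for members than for detected genes as a whole. The median coefficient of variation of depth-scaled counts was 35.8% on the crol-KO side and 25.1% on the wild-type side, beside 12% and 15.1% over all genes detected in those labels, whose counts are higher. For 2 of the 12 members of the crol-KO side and 12 of the 25 of the wild-type side, it was no larger than counting error alone would give. Replicate 1 held the highest scaled value for 12 of the 25 members of the wild-type side, replicate 2 for 8 and replicate 3 for 5. Apart from snoRNA:660, the summed level of the wild-type side was 15.2, 12.8 and 12.9 CPM over replicates 1, 2 and 3. That of the crol-KO side was 10.6, 14.7 and 10.7 CPM.

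The nearest genes were tested as a measure that the rule did not use. Of 72 neighbouring genes in the tables, 43 were tested, and the call was higher in the libraries labelled crol-KO for 5 and lower for 5, which is to be read beside the 13.5% called over all genes. The split was not stable: upper-quartile normalization gave 8 higher and 4 lower, limma on log2(TPM + 1) 2 and 9, and limma on log2(TPM + 0.1) 2 and 13. Neighbours of the crol-KO side gave 3 higher and 2 lower of 15, the former being Alp7, Alp8 and Elo68alpha. Those of the wild-type side gave 2 higher and 3 lower of 28. The median log2 fold change of the neighbours was 0.26 on the crol-KO side and -0.11 on the wild-type side, beside -0.05 over all genes. Apart from the phosphatase and elongase genes, no called neighbour belonged to the family of its member.

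The gene of the calcium sensor calmodulin, Cam, next to CR45271, had a log2 fold change of -2.44 (SE 0.186, edgeR adjusted p = 0.000185), at 4264, 2845 and 1718 counts in the libraries labelled crol-KO against 18692, 23987 and 15497, while CR45271 was detected in the former. CG4408, next to CR44322, was at -1.40 (edgeR adjusted p = 0.00676), again opposite to its member. On the wild-type side, Listericin, an antibacterial gene next to CG13226, and CG1368, next to CG12480, were at -1.40 and -1.55 (edgeR adjusted p of 0.00387 and 0.00208), in the direction of their members. CG1773, next to CR44292, was higher by 1.95 (edgeR adjusted p = 0.0128), and the genes on the 2 sides of ppk28 moved apart, CG13005 to 1.07 and CG4829 to -1.02 (edgeR adjusted p of 0.00418 and 0.00336). The change of CG4829 was close to the fold threshold, and its call was lost under 7 of 15 other settings, which were DESeq2, edgeR with DESeq2 size factors, upper-quartile normalization, the length trend removed, and leaving out wild-type replicate 1, wild-type replicate 2 or crol-KO replicate 2. The calls of CG1773 and CG13005 were lost with both limma fits. The called neighbours thus differed in either direction, and 33 of the 43 tested neighbours were not called.

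**Figure D4:**
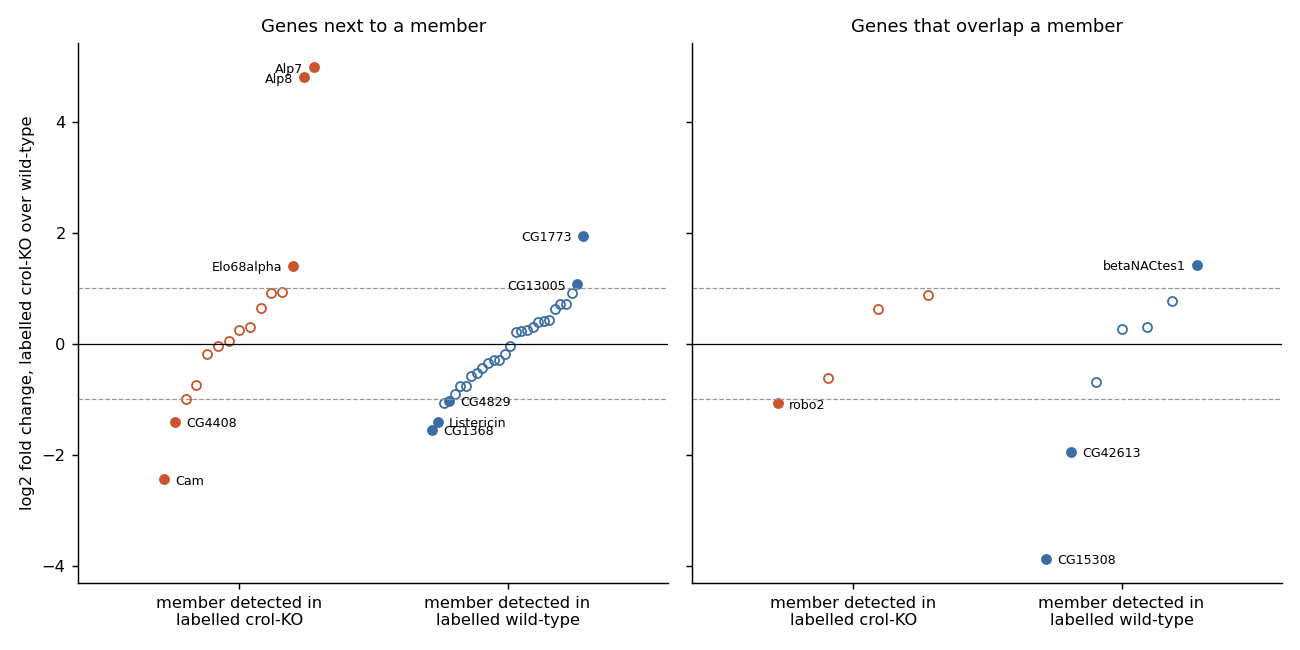
Log2 fold change (labelled crol-KO over wild-type, from edgeR) of the 43 tested genes next to a member and of the 11 tested genes that overlap one, split by the label in which the member was detected. Filled points were called at an adjusted p under 0.05 and a fold change beyond the dashed lines at 1 and -1, and open points were not. Alp7 at 4.98 and Alp8 at 4.80 stand apart from the other neighbours, and CG15308 at -3.87 from the other overlapping genes.

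The edge of the rule was densely filled on the wild-type side. Of the members, 4 of 12 on the crol-KO side and 10 of 25 on the wild-type side had 10 to 12 counts in their lowest detected library, and 2 and 7 reached exactly 3 counts in the other label. Just outside, 7 genes on the crol-KO side and 23 on the wild-type side failed only because the other label reached 4 or 5 counts. CG31664 was the highest of these on the crol-KO side, with 404, 201 and 166 counts against 1, 5 and 1, followed by Spn43Aa, a serine protease inhibitor of the serpin family, with 68, 277 and 182 against 1, 4 and 2. On the wild-type side they were CG34280, with 49, 58 and 167 counts against 2, 5 and 2, and CR44947, with 79, 130 and 72 against 1, 5 and 2. A further 2 and 19 genes failed because their lowest detected library was at 8 or 9. Several genes just outside therefore had a wider contrast than many members.

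**Figure D5:**
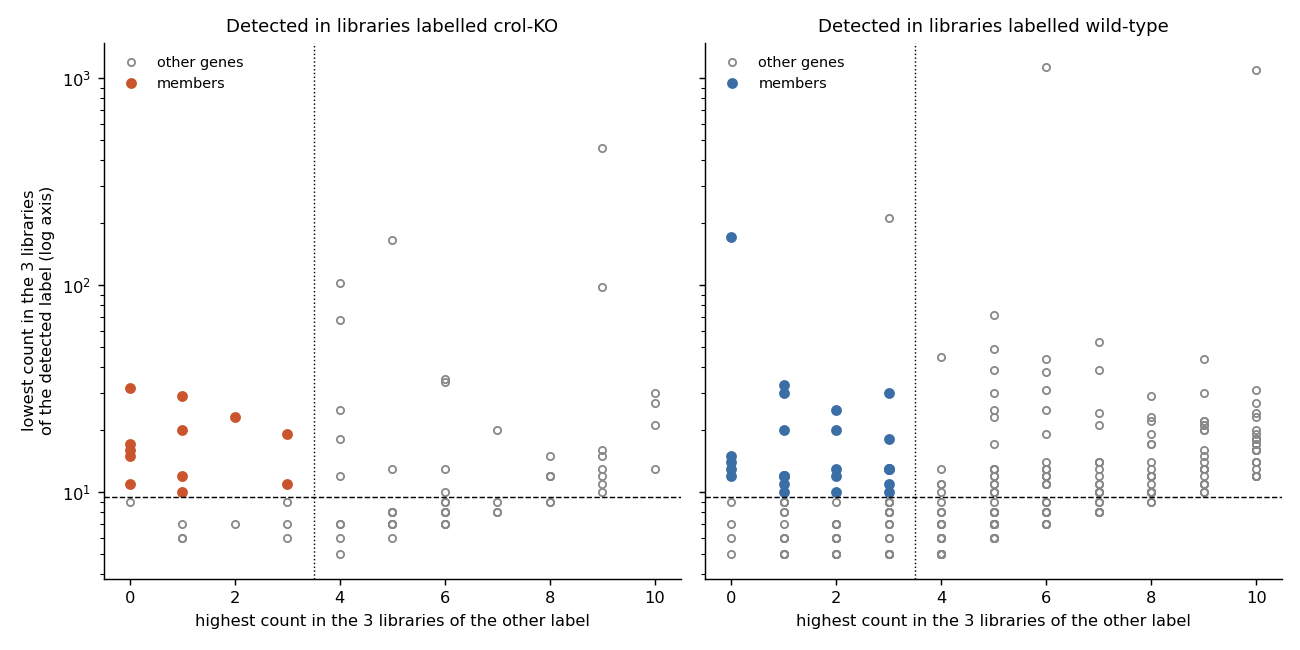
Lowest count in the detected label (log axis) against the highest count in the other label, for genes close to the limits of the rule. Filled points are members, open points other genes, the dashed line lies below 10 counts and the dotted line above 3. The open point above the dashed line and left of the dotted line on the wild-type side is CG10081, which was left out by name, and the wild-type side holds more genes on both sides of each line (19 against 2 at a lowest count of 8 or 9).

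The number of members on each side differed with the scale on which the rule was applied. In the shallowest library, crol-KO replicate 3, a count of 10 was 0.495 CPM, so a gene had to be more abundant to count as detected in that label than in the other. With counts scaled to the smallest library size after TMM normalization, a choice made after seeing the data, the rule gave 14 genes on each side in place of 12 and 25. Of these, 7 on each side were members. With scaling by total counts, which also evens out depth, there were 12 and 29, and with limits on TPM 12 and 18. Leaving out a library, which loosens the rule, gave 26 to 44 genes on the wild-type side, and 44, 42 and 39 were reached without wild-type replicate 3, crol-KO replicate 2 and crol-KO replicate 1. On the crol-KO side this gave 13 to 18.

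The members least dependent on these limits were few. CR44322 on the crol-KO side and snoRNA:660 on the wild-type side met the rule at 20 counts in place of 10, at 0 counts in place of 3, under both ways of scaling and under limits on TPM. On the crol-KO side 3 more met it under 4 of these 5 versions (CG45072, CR45570 and Obp50d), as did CG13002, CG43646 and CG43668 on the wild-type side. By contrast 1 member of the crol-KO side, CR45271, and 9 of the wild-type side met none of the 5. Those 9 were CG11380, CG13226, CG14515, CG43666, CG43732, CR43839, CR44292, Muc68D and dec-1.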

How the data were processed

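RNA-seq tables of 6 libraries were used, 1 per sample, with the group and replicate number of each taken from its label. The authors trimmed reads with Trim Galore 0.6.1, aligned them to dm3 with STAR 2.7.3a and ran RSEM 1.3.2, and the deposited expected counts per gene carry no scaling for depth. TPM values in the same tables were scaled by the authors for length and library size. Transcript length and effective length are also deposited there. Libraries were stranded by kit, and use of strand in counting is not given in the sources used here. Other values of the study were not used.

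Expected counts were rounded. The 12434 genes that reached 10 counts in 3 or more libraries were fitted with edgeR 4.0.16 in R 4.3.3 (TMM, quasi-likelihood test, Benjamini-Hochberg adjustment over all of them) with labelled genotype as the only term, and called at an adjusted p under 0.05 with a log2 fold change beyond 1 in either direction. All 37 members pass that filter by their own rule. A fold for a gene with no count in a label used a floor of 3 counts over the group; other ratios and shares have exact 95% intervals for counting error only. Names, arms, neighbours and overlaps came from Release 6 annotation (16458 of 16508 genes matched, and all 37 members); no coordinates are given, since the tables are dm3. Alternatives were DESeq2 1.42.0, limma 3.58.1 on log2 TPM (pseudocounts 1 and 0.1), other normalizations and filters, removal of the transcript length trend (lowess span 0.3), the replicate number as a block, and each library left out. The edgeR steps were tested on simulated data.

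Every member is named. Values by library are given for the 10 of highest mean CPM on each side, those with a family name and others of interest; neighbours are named where called. The members and lists were chosen with earlier results of these data known. Families were grouped by the stem of the current symbol after the members were known. Protein relatives and promoter motifs were planned and not analysed here. The repeats are separate samples of larvae, so p-values measure the spread between them.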

Additional observations from a re-analysis of the deposited data

How the results depend on the processing

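The fold changes of crol and w kept their sign under every alternative of the fit. Those of the members did too, which their choice fixes. The number of members moved with the limits: on the crol-KO side from 12 to 4 at 20 counts, 20 at 5, 5 at 0 counts in the other label and 19 at 5, and on the wild-type side from 25 to 7, 82, 5 and 48, with 14 after scaling to the smallest TMM library size (added after seeing the data). Leaving out one library gave 13 to 18 and 26 to 44. Unrounded counts gave the same numbers. The 1684 calls over all genes became 3301 with limma on log2(TPM + 0.1) and 4113 without a fold threshold, and lay between 1291 and 1978 when a library was left out. Upper-quartile normalization turned the split from 745 higher and 939 lower to 912 and 752, as leaving out wild-type replicate 2 did to 782 and 576; removal of the length trend gave 630 and 704, and limma on log2(TPM + 1) gave 175 and 1671 and on log2(TPM + 0.1) 246 and 3055. The 10 called neighbours became 19 without a fold threshold and 20 with 2 genes on each side, and 8 to 12 without a library. The difference of crol was -0.14 with the length trend removed. The causes were not tested.

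With the replicate number as a block, 1491 genes were called over all and 10 of the neighbours (4 higher and 6 lower, with Elo68alpha lost). Same-numbered libraries deviated together with correlations of -0.292 to 0.00361, so they share only a number. The alternatives for protein relatives and promoter motifs were not run, for want of those sequences here. Depth limits what can be said: 3 counts stood for up to 0.149 CPM, so a member low in one label is not shown to be absent there.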
